A study of Mus musculus with 8 samples.

Results

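Cd34 and 5 related genes, Podxl, Podxl2, Spn, Selplg and Cd164, encode surface sialomucins, membrane proteins whose outer parts carry dense O-linked sugar chains ending in sialic acid. Each of the 6 genes was found by its symbol in the platform annotation and was measured by 1 probe set of its own, among 19938 genes measured in all. Cd34 was selected on its measured levels, which differed between the 2 clones, and the other 5 genes were chosen by kinship or likeness of their proteins to CD34. Levels by clone are therefore described below without a test. The difference between KO and Control was tested in the fit over all genes.

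The arrays came from mouse c-Kit-positive marrow cells with floxed alleles of both Runx1 and Cbfb, transduced with the leukaemia fusion MLL-AF9 and with CreERT2, a Cre recombinase switched on by 4-hydroxytamoxifen (4OHT), under puromycin selection. All groups carried the floxed alleles, MLL-AF9 and CreERT2. The cultures labelled Runx1Cbfb-KO, in clone 2 and in clone 1, received 4OHT at 1 µM for 24 h, and the Control cultures of clone 2 and clone 1 received ethanol (EtOH) for 24 h, all in cytokine-enriched methylcellulose. Each of these 4 groups had 2 biological replicates, so the 8 arrays form 4 sets of 1 KO and 1 Control culture each. A clone is 1 line of cells, and no culture received 4OHT without floxed genes, so effects of 4OHT and active Cre cannot be told apart from those of deletion. The labels do not say how far replicates of a clone were grown apart, so the p-values measure only the spread between these cultures.

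Sialomucins keep leukocytes from sticking to each other through bulk and negative charge, and with the right sugars they also serve as ligands for selectins, the adhesion receptors of blood vessels and leukocytes. CD34, podocalyxin (Podxl) and endoglycan (Podxl2) form 1 family with related cytoplasmic tails. CD34 marks blood stem and progenitor cells and vessel endothelium, and is used in sorting to separate myeloid progenitors. CD43 (Spn) is a major sialoglycoprotein of leukocytes, PSGL-1 (Selplg) is their main ligand for P-selectin, and endolyn (Cd164) is a sialomucin of progenitors found at the surface and in lysosomes.

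RUNX1 binds DNA together with its partner CBFB, so the bases before the start sites of the gene that differed between clones and of the gene that changed in KO are shown. They are RefSeq sequences of build GRCm38.p6, 5′ to 3′ on the gene's strand, the 250 bases before 1 RefSeq start each, Cd34 at chr1:194938571-194938820 on the plus strand and Spn at chr7:127137824-127138073 on the minus strand.
Cd34: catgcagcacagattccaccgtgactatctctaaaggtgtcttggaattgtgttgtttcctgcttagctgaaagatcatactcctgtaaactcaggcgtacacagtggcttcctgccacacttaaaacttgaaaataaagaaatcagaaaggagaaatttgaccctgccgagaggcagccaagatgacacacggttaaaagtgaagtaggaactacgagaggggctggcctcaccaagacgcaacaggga
Spn: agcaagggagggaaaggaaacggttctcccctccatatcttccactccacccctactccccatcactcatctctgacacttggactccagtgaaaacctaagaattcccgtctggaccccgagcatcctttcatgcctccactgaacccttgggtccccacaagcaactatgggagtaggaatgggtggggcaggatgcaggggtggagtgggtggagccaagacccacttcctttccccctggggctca
Both are in lower case because none of the 4 motifs searched on both strands lay in them. The motifs were TGTGGT and TGCGGT for RUNX, GAGGAA for PU.1 and TTNNGNAA for C/EBP. Over 32851 RefSeq windows of the same length, 14% held TGTGGT, 5.1% TGCGGT, 23.3% GAGGAA and 36.8% TTNNGNAA, and 39.5% held none. GC content was 46.4% before Cd34 and 56.8% before Spn, against a median of 52.4% over those windows. The RefSeq table matched 4 of the 6 genes, with Podxl2 and Cd164 beside those shown. Before 1 of its starts Podxl2 held TGTGGT, on the opposite strand, and GAGGAA, and Cd164 held GAGGAA. A match or its absence describes these letters only.

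The targeted genes were read first. Runx1 had log2 levels between 10.58 and 11.19 on the KO arrays and between 10.05 and 10.71 on the Control arrays, a limma difference of 0.52 ± 0.04 (SE, n = 4 sets, adjusted p = 1.64e-05) that was higher in 4 of 4 sets. Cbfb had levels between 9.60 and 9.89 on KO arrays and between 9.87 and 10.02 on Control arrays, lower in 4 of 4 sets (-0.18 ± 0.05, adjusted p = 0.128). The Runx1 signal goes against the label. Whole-transcript probe sets can lie outside the deleted exons, so this signal does not test the deletion. Where the probes lie was not examined, and the cause of the Runx1 rise was not tested. KO below means the arrays so labelled. The 12 marker genes fixed for myeloid cells carrying MLL-AF9 were all measured. Their mean log2 level was 11.03 and 10.72 on the KO arrays of clone 2, against 11.04 and 10.93 in Control, and in clone 1 it was 11.03 and 11.04 in KO, against 11.09 and 11.13 in Control. The KO array of clone 2, replicate 2, stood below the other 3 KO arrays, which lay close together. Of the 12 markers 4 fell, Prtn3, Itgam, Spi1 and Ms4a3, and none rose, where 0.471% of all genes fell and 0.481% rose. Without the set of that array the same 4 fell, and without either set of clone 1 only Ms4a3 did. None of the 12 passed without the pairing of arrays, with only clone in the model or with clone plus replicate number. None passed without the variance trend or with all probe sets tested. Robust moderation left Prtn3 and Itgam, and centred arrays left Ms4a3. Without the set of clone 2, replicate 2, Spn still fell (-0.42, limma adjusted p = 0.000186). In that fit Cd34 changed by -0.026 and differed between the clones by 5.38.

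Cd34 stood at 2 levels that followed the clone and not the treatment. In clone 2 its log2 level was 11.23 and 11.57 on the KO arrays and 11.11 and 11.55 on the Control arrays. In clone 1 it was 5.58 and 5.91 on the KO arrays and 5.77 and 5.92 on the Control arrays. All 4 arrays of clone 2 lay far above all 4 arrays of clone 1. In such bulk RNA, fewer cells that carry a transcript and less of it per cell cannot be told apart. The mean was 11.37 ± 0.23 in clone 2 and 5.80 ± 0.16 in clone 1 (SD, n = 4 arrays each), a log2 difference of 5.57 or 47.5-fold, which was 5.66 among KO arrays and 5.48 among Control arrays. In size this was number 3 of 19938 genes, after Xist and Eya1. The deposited values carry no detection call, so whether the clone 1 signal of Cd34 is above background was not tested, and the fold is that of the measured signals. Within each clone, replicate 2 was above replicate 1 on both KO and Control arrays, and in both clones the KO and Control arrays overlapped.

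**Figure D1:**
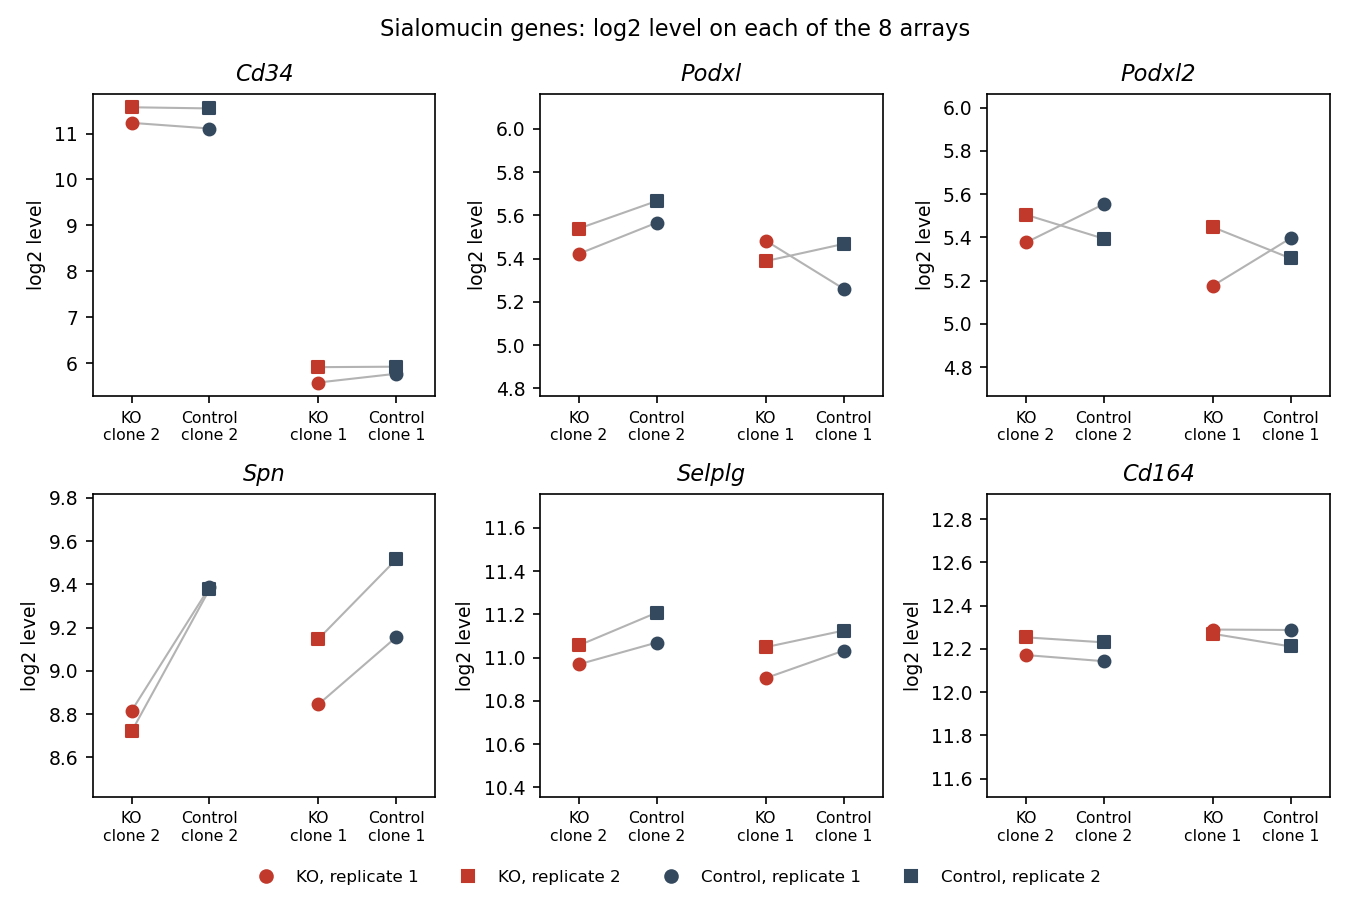
Log2 level of each gene on the 8 arrays, KO in red and Control in dark blue, with clone 2 left of clone 1, circles for replicate 1, squares for replicate 2 and a line joining the arrays of a set; vertical ranges differ between panels. Cd34 lies between 11.11 and 11.57 in clone 2 and between 5.58 and 5.92 in clone 1, while each Spn line slopes toward a lower KO value.

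The other members did not share the clone pattern, though Podxl and Podxl2 lay below the lowest array median on every array. In clone 2 minus clone 1, the log2 difference of mean levels was 0.15 for Podxl, 0.13 for Podxl2, -0.092 for Spn, 0.048 for Selplg and -0.065 for Cd164. Those of Spn and Selplg had no stable sign, at 0.074 for Spn without clone 1 replicate 2, and at -0.011 and -0.0083 for Selplg without clone 1 replicate 1 and without clone 2 replicate 2. The arrays of the clones overlapped for all 5, so 1 of the 6 genes had clones that did not overlap, where 19.7% of all genes had such clones. Across all genes the median absolute clone difference was 0.11. Within a treatment there were small gaps between clones. The Control arrays of clone 2 were above those of clone 1 for Podxl, and the KO arrays of clone 2 were below those of clone 1 for Cd164 and Spn.

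Between KO and Control, 1 of the 6 genes passed the threshold, an adjusted p under 0.05 over all 19938 genes, and that gene, Spn, fell. Over all genes 190 passed, or 0.953%, of which 96 rose (0.481%) and 94 fell (0.471%). The median log2 change was -0.034 over the 6 genes and 0.00018 over all genes. Each SE is limma's moderated SE, which borrows spread from other genes.

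Spn, the CD43 gene, had log2 levels of 8.82 and 8.72 on the KO arrays of clone 2, against 9.39 and 9.38 on its Control arrays. In clone 1 it had 8.85 and 9.15 on the KO arrays, against 9.16 and 9.52 on the Control arrays. Every KO array was below every Control array, though only by 0.0085 at the closest, where the arrays come from different sets. Such a gap between the groups occurred in 1.17% of all genes. Spn averaged 8.88 ± 0.19 in KO and 9.36 ± 0.15 in Control (SD, n = 4 arrays each), 1.39-fold lower in KO. The log2 change was -0.48 ± 0.06 (SE, n = 4 sets, limma adjusted p = 0.00254; 95% interval -0.62 to -0.34), with set differences of -0.57 and -0.66 in clone 2 and -0.31 and -0.37 in clone 1.

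Spn fell by 0.61 ± 0.08 in clone 2 (SE, limma adjusted p = 0.00102), while in clone 1 its change was -0.34 ± 0.08 (adjusted p = 0.174). Of all genes 0.682% passed in clone 2 and 0.181% in clone 1. The change in clone 2 minus that in clone 1 was -0.27 ± 0.11 (95% interval -0.52 to -0.031) and did not pass over all genes (limma adjusted p = 1.00), where 0.01% of genes passed. The Spn call ended without the pairing of arrays (adjusted p = 1.00), with only clone in the model (0.183), without the variance trend (0.0783) and with all probe sets tested (0.213). It was kept without any 1 set, with changes between -0.53 and -0.42.

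**Figure D2:**
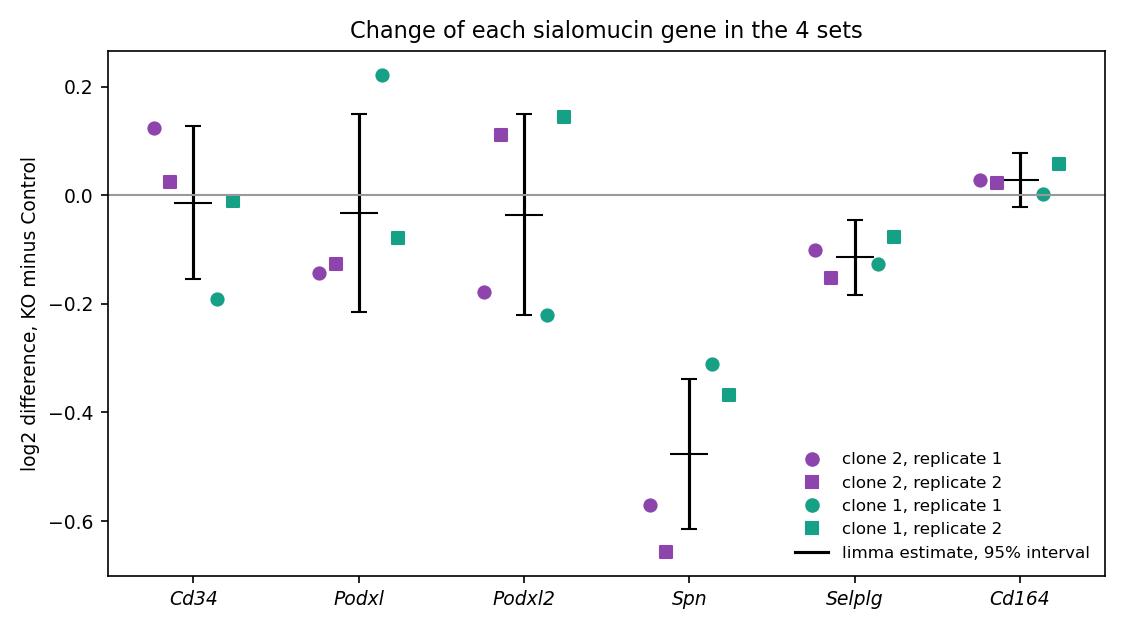
Log2 difference, KO minus Control, of each gene in the 4 sets, purple for clone 2 and green for clone 1, with the limma estimate and its 95% interval in black. The 4 Spn points lie between -0.66 and -0.31, and the interval of Cd34 runs from -0.15 to 0.13.

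Cd34 itself did not pass. Its set differences were 0.12 and 0.025 in clone 2 and -0.19 and -0.010 in clone 1, and the change over the 4 sets was -0.013 ± 0.065 (SE, limma adjusted p = 1.00; 95% interval -0.15 to 0.13). The interval leaves room for a fall or a rise of that size. In clone 2, where the signal is high, the change was 0.074 ± 0.095, and in clone 1 it was -0.10 ± 0.09. Their difference of 0.17 ± 0.13 (95% interval -0.11 to 0.46) did not pass (adjusted p = 1.00). Without the set of clone 1, replicate 1, the change over the sets was 0.046.

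The other genes of the CD34 family gave small and mixed differences at low signal. Podxl and Podxl2 lay below the lowest array median, 6.26, on every array, and whether their signal is above background was not tested. Podxl, known from podocytes and endothelium, had levels of 5.42 and 5.54 on the KO arrays of clone 2, against 5.57 and 5.67 on its Control arrays. In clone 1 Podxl had 5.48 and 5.39 in KO, against 5.26 and 5.47 in Control. The Podxl groups overlapped, 3 of 4 sets were lower, and the change was -0.032 ± 0.084 (95% interval -0.21 to 0.15). Podxl2 had levels of 5.38 and 5.50 on the KO arrays of clone 2, against 5.55 and 5.39 in Control, and in clone 1 it had 5.18 and 5.45 in KO, against 5.40 and 5.30 in Control. Its sets split evenly in direction, with both replicate 1 sets lower and both replicate 2 sets higher, and its change was -0.036 ± 0.086 (95% interval -0.22 to 0.15). Neither gene passed (limma adjusted p = 1.00 for both).

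Selplg and Cd164 had tighter arrays. Selplg had 10.97 and 11.06 on the KO arrays of clone 2, against 11.07 and 11.21 on its Control arrays. In clone 1 Selplg had 10.91 and 11.05 in KO, against 11.03 and 11.13 in Control. The groups overlapped, yet KO was lower within 4 of 4 sets, by 0.077 to 0.15, and the log2 change of -0.11 ± 0.03 (95% interval -0.18 to -0.045) did not pass over all genes (limma adjusted p = 0.180). Cd164 had 12.17 and 12.25 on the KO arrays of clone 2, against 12.14 and 12.23 in Control, and in clone 1 it had 12.29 and 12.27 in KO, against 12.29 and 12.21 in Control. Its set differences were all above 0 but at most 0.058, and its change was 0.028 ± 0.023 (95% interval -0.022 to 0.078, adjusted p = 1.00). Spn, Selplg and Cd164 thus each had 1 sign in 4 of 4 sets, 3 of the 6 genes, where 13.1% of all genes did so.

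**Figure D3:**
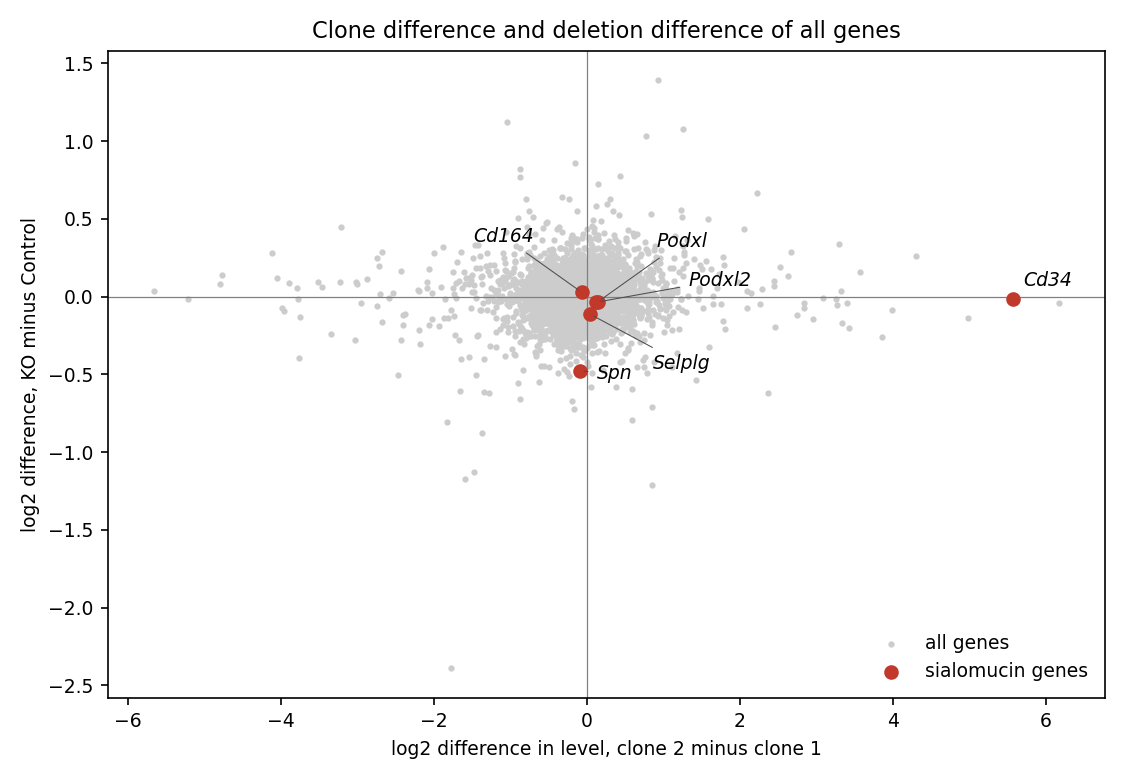
Each of the 19938 genes by its log2 difference in level, clone 2 minus clone 1 (horizontal), and its log2 difference, KO minus Control (vertical), with the sialomucin genes in red. Cd34 lies at 5.57 on the clone axis with a difference near 0 between KO and Control, and Spn lies at -0.48 on the vertical axis with a clone difference of -0.092.

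Sialomucins work through their sugars, their ligands and their links to the cell cortex, so 7 lists of such genes were read in the same fit. The lists name 106 distinct genes, of which 100 were measured, and 5 rose, 4 fell and 91 did not pass, beside 0.481% of all genes that rose and 0.471% that fell. The other 6 are not analysed here. The lists were chosen with earlier results of these data known, so these counts describe the listed genes and cannot show enrichment.

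The enzyme lists held 2 calls. Of 18 sialylation genes 1 rose and none fell (median log2 change 0.051), and the gene was St3gal1, whose product caps core 1 O-glycans with sialic acid and in mouse T cells acts on CD43. St3gal1 had 8.31 and 8.15 on the KO arrays of clone 2, against 7.97 and 7.88 in Control, and in clone 1 it had 8.63 and 8.31 in KO, against 8.11 and 7.93 in Control. Its KO arrays were all above its Control arrays, and it rose by 0.38 ± 0.07 (SE, n = 4 sets, limma adjusted p = 0.0172), or 1.30-fold. A second, dimmer St3gal1 probe set changed by 0.088 with 2 sets in each direction, and with the probe sets averaged the change was 0.23 (adjusted p = 0.265). The St3gal1 call also ended without the set of clone 1 replicate 1 (0.0869), clone 1 replicate 2 (0.124) or clone 2 replicate 1 (0.0718). Of 14 fucosylation and sulfation genes 1 rose and none fell (median -0.015). It was Papss2, which makes the sulfate donor used on PSGL-1 tyrosines and on sugars, at 0.29 ± 0.06 (adjusted p = 0.0298). The Papss2 call ended without clone 1 replicate 1 (0.0816), clone 1 replicate 2 (0.345) or clone 2 replicate 1 (0.167). Of 18 O-glycan core enzymes none passed (median -0.0030), the smallest p being that of the galactosyltransferase gene B4galt1 (-0.14 ± 0.04, adjusted p = 0.148).

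The partners held a fall and the linkers held rises. Of 8 binding partners 1 fell and none rose (median -0.031). It was Cxcr4, the chemokine receptor that human CD164 associates with, at 10.26 and 10.07 on the KO arrays of clone 2, against 10.58 and 10.46 in Control. In clone 1 Cxcr4 had 10.54 and 10.57 in KO, against 10.75 and 10.78 in Control, and its change was -0.28 ± 0.04 (SE, n = 4 sets, limma adjusted p = 0.00503). Of 11 cytoplasmic linkers 2 rose and none fell (median -0.022). Rdx, which encodes radixin and ties membrane proteins to actin, rose by 0.19 ± 0.04 (adjusted p = 0.0381), and Slc9a3r1, the scaffold NHERF1 that binds the podocalyxin tail, rose by 0.17 ± 0.04 (0.0447). Without 1 set the adjusted p was 0.112, 0.0686 and 0.178 for Rdx and 0.0788, 0.201 and 0.297 for Slc9a3r1, leaving out clone 1 replicate 1, clone 1 replicate 2 and clone 2 replicate 1 in that order.

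Surface genes that define progenitor gates beside CD34 also held calls. Of 15 such genes 2 fell and 1 rose (median 0.038). Vcam1, an adhesion receptor for integrins, fell by 0.54 ± 0.07 (SE, n = 4 sets, limma adjusted p = 0.00324), Kit, the stem cell factor receptor gene, fell by 0.36 ± 0.05 (0.00404), and Cd93, a C-type lectin-like receptor of early progenitors, rose by 0.22 ± 0.04 (0.0161). The Cd93 call ended without clone 1 replicate 1 (0.0663) or clone 2 replicate 1 (0.0658). Of 16 other mucin-like or related surface proteins 1 fell and none rose (median -0.021). It was Prom1, the membrane protein CD133, at -0.39 ± 0.08 (adjusted p = 0.0272), and its call ended without clone 1 replicate 2 (0.120) or clone 2 replicate 1 (0.136). All 9 list calls ended without the pairing, with only clone in the model, without the variance trend and with all probe sets tested.

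**Figure D4:**
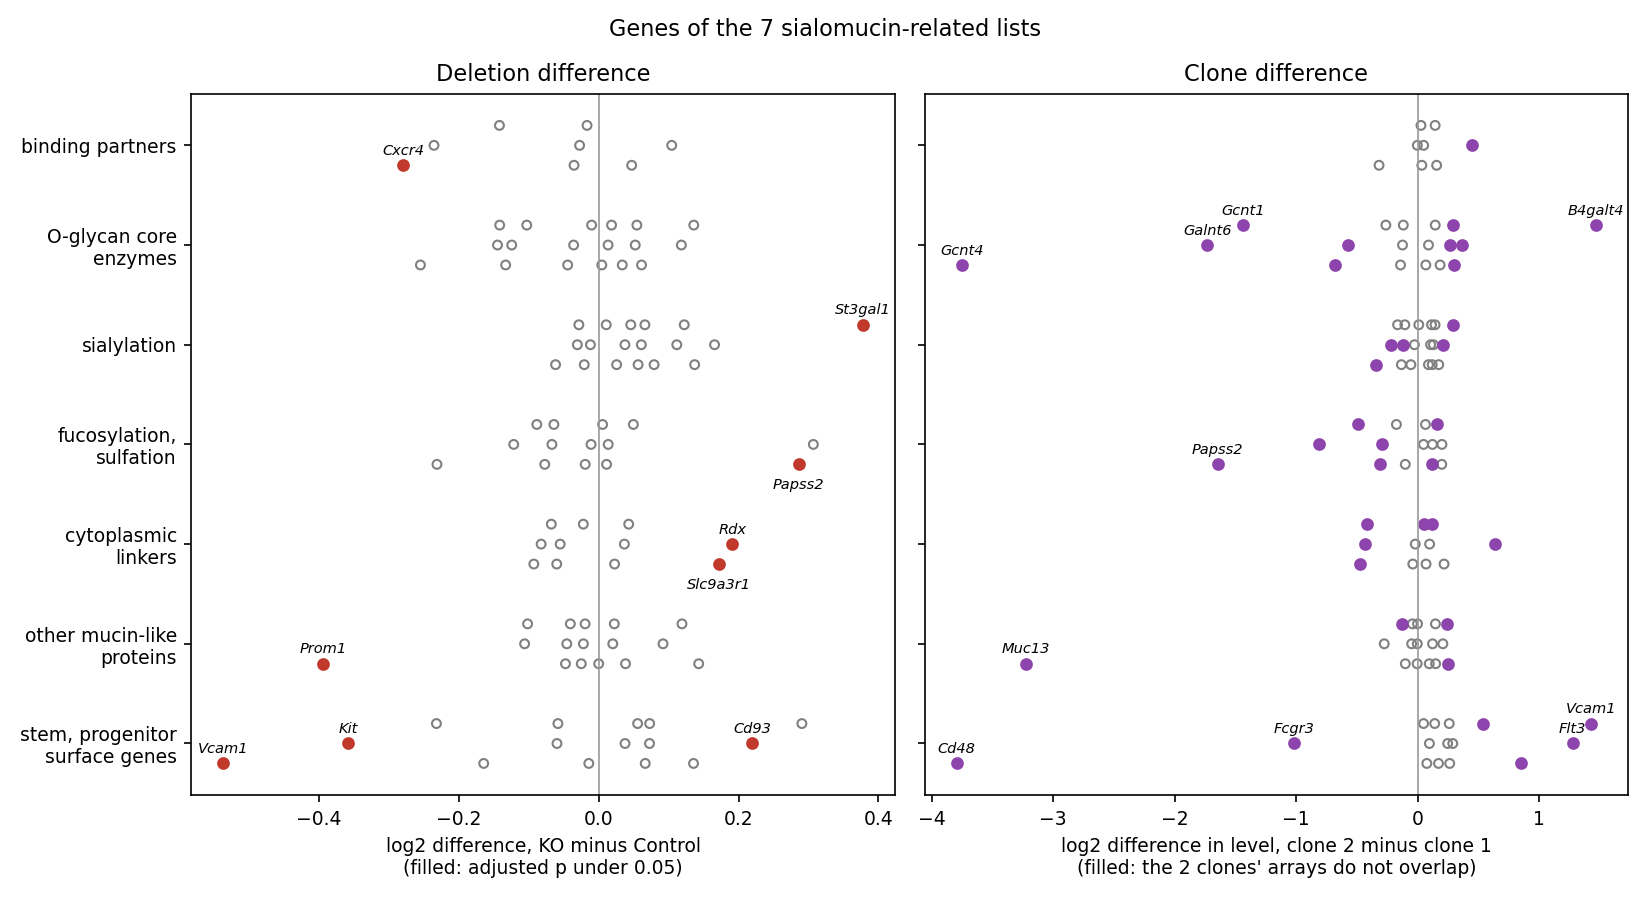
Genes of the 7 lists by log2 difference, KO minus Control (left, filled where adjusted p is under 0.05), and by log2 difference in level, clone 2 minus clone 1 (right, filled where the clones' arrays do not overlap). The 9 filled genes on the left lie between -0.54 and 0.38, and on the right Gcnt4, Cd48 and Muc13 lie below -3.

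The clones also differed in genes that build and accompany sialomucins, given here as levels with no test. Of 18 O-glycan core enzymes 10 had clones that did not overlap, 5 higher and 5 lower in clone 2, beside 9.22% of all genes higher and 10.5% lower. The genes named in this paragraph were chosen after their values were seen, as those more than 1 log2 unit apart. Gcnt4 and Gcnt1, which encode core 2 branching enzymes, were lower in clone 2, at 6.27 ± 0.07 against 10.02 ± 0.12 in clone 1 for Gcnt4 and at 6.07 ± 0.12 against 7.51 ± 0.22 for Gcnt1 (SD, n = 4 arrays each). Galnt6, which starts O-glycans, was 3.32-fold lower in clone 2, and the galactosyltransferase gene B4galt4 was 2.76-fold higher. Of 14 fucosylation and sulfation genes 7 did not overlap, among them Papss2, 3.13-fold lower in clone 2. Of 18 sialylation genes 5 did not overlap, none of them by more than 0.34. Of 11 cytoplasmic linkers 6 did not overlap, 3 higher and 3 lower in clone 2, and of 8 binding partners 1 did not, higher in clone 2.

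Other surface genes ran with or against Cd34, and those named here were also chosen after their values were seen. Of the 16 other mucin-like or related surface genes 4 had clones that did not overlap, beside 19.7% of all genes. In clone 2, 2 of them were higher and 2 lower. Muc13, a membrane mucin, was at 8.12 ± 0.15 in clone 2 and 11.34 ± 0.10 in clone 1 (SD, n = 4 arrays each), 9.32-fold lower in clone 2. Of the 15 progenitor surface genes 4 were higher and 2 lower in clone 2 without overlap, beside 9.22% of all genes higher and 10.5% lower. Cd48, a SLAM family gene used in stem cell gates, was 13.9-fold lower in clone 2, and the Fc receptor gene Fcgr3, used with CD34 to split myeloid progenitors, was 2.03-fold lower. Vcam1 was 2.69-fold higher and the cytokine receptor gene Flt3 2.42-fold higher in clone 2.

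Markers of other cell types that carry CD34 or could be present were read beside these levels. Of 45 markers of endothelial, megakaryocytic, mast, eosinophil, lymphoid and stromal cells none passed between KO and Control, and 5 had clones that did not overlap, a smaller share than the 19.7% of all genes. Of the 10 endothelial markers Tie1 was higher and Pecam1 lower in clone 2, by 1.05 and -1.03 on log2, while the differences were 0.026 for Cdh5 and -0.0031 for Emcn. The mean log2 level of the endothelial list was 5.84 to 5.94 over the arrays of clone 2 and 5.75 to 5.88 over those of clone 1. The list means did not overlap for lymphoid markers (5.50 to 5.73 in clone 2 and 5.08 to 5.18 in clone 1), megakaryocyte markers (5.93 to 6.12 and 5.72 to 5.87) and mast cell markers (4.71 to 4.86 and 4.87 to 4.93), again in clone 2 and then clone 1. Those of the eosinophil and stromal lists overlapped. On every array the means of all these lists lay below the lowest array median, 6.26. Whether the signal of each marker is above background was not tested. The other 3 genes without overlap were Gp9 (0.87), Ms4a2 (-1.09) and Cd79b (3.09), in clone 2 minus clone 1. Gp9 is of the megakaryocyte list, Ms4a2 of the mast cell list and Cd79b of the lymphoid list. The median clone differences of those lists were smaller in size, at 0.081, 0.028 and 0.079 in that order. So 1 gene weighed heavily on each of these list means. Of the 12 markers of myeloid cells carrying MLL-AF9, 7 had clones that did not overlap, a larger share than the 19.7% of all genes. In clone 2, 3 of these were higher and 4 lower. Over the 12 the clone differences ran from -1.83 to 0.82 on log2. The part of any of these markers in the Cd34 difference was not tested.

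The genes whose pattern was most like that of Cd34 were ranked by Pearson r over the 8 arrays among 805 genes with a range of at least 1 log2 unit. Because the arrays fall into 2 groups by clone, a large r mainly shows that a gene separates the clones. Of the 805 genes, 406 had an r of at least 0.9 in size. The order among such genes also depends on small differences within a clone, which were not examined. The 5 most like were Ikzf2, a zinc finger factor of lymphoid cells (r = 1.00), Cd79b, a subunit of the B cell receptor, Bcat1, an enzyme of branched-chain amino acids, Ccnb1ip1, a meiotic crossover gene, and Rftn1, a lipid raft protein, all with r of at least 0.997. They were 4.89-fold (Rftn1) to 10.6-fold (Ccnb1ip1) higher in clone 2. The 5 most opposite were Tbc1d19, Eif2s3y, B3galt1, Kctd17 and Nebl, with r of -0.998 or lower, and they were 2.25-fold (Kctd17) to 37.2-fold (Eif2s3y) lower in clone 2. None of these 10 genes passed between KO and Control (limma adjusted p = 1.00 each). They were picked for following Cd34, which did not pass either, over the same 8 arrays. That choice nearly fixes this outcome, so it is not a separate result.

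**Figure D5:**
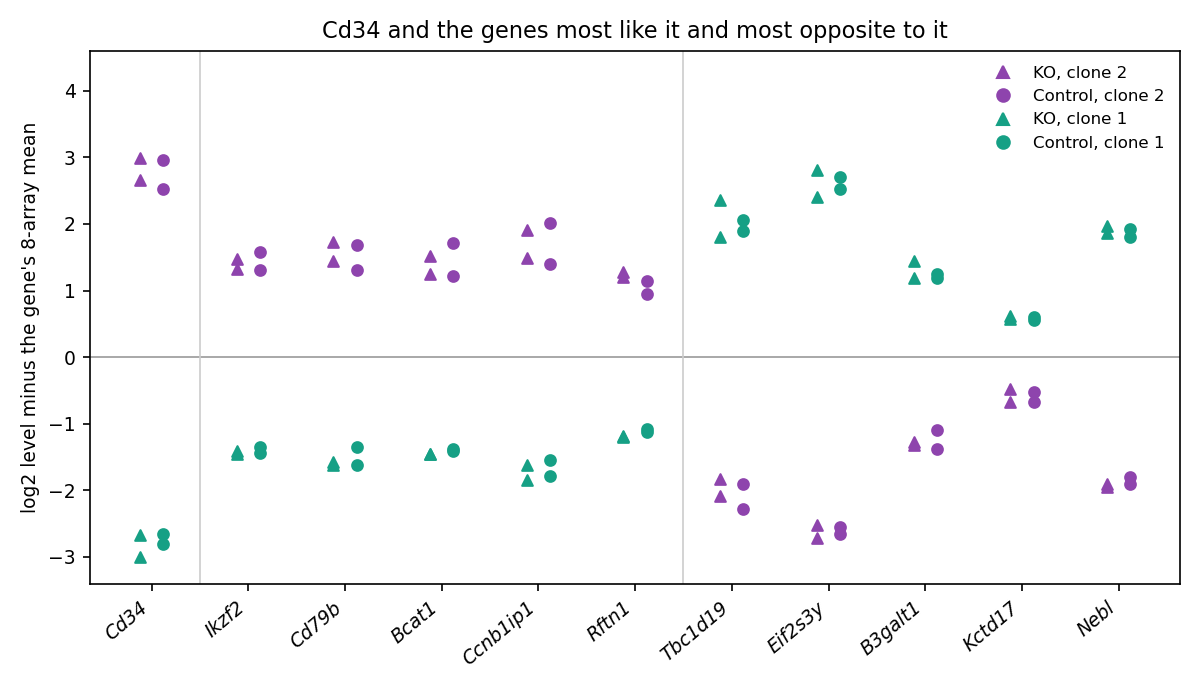
Log2 level of Cd34, the 5 genes most like it and the 5 most opposite to it, each minus its own mean over the 8 arrays, with purple for clone 2, green for clone 1, triangles for KO and circles for Control. In every gene shown the 2 colours separate and the symbols of KO and Control lie together, which the choice of genes by likeness to Cd34 nearly fixes.

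Eif2s3y is a gene of the Y chromosome, and the sex-linked genes separated the clones as fully as Cd34 did. Xist, the RNA that coats an inactive X chromosome, was at 11.23 ± 0.05 in clone 2 and 5.05 ± 0.21 in clone 1 (SD, n = 4 arrays each). The Y-linked genes ran the other way, Eif2s3y at 4.22 ± 0.09 in clone 2 and 9.44 ± 0.18 in clone 1, Kdm5d at 4.83 ± 0.17 and 8.29 ± 0.13, and Uty at 4.24 ± 0.17 and 9.01 ± 0.15, again in clone 2 and then clone 1. Each clone is 1 line, so Cd34 level, sex-linked genes and any other trait of a clone cannot be told apart here.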

How the data were processed

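Total RNA of 8 cultures was labelled by whole-transcript kits and hybridised to Affymetrix arrays, per the labels' protocols. The authors deposited log2 probe-set levels, and the submitters' processing notes name RMA (background correction, quantile normalization, median polish), with no version or chip definition. The log2 scale was read from the deposited values, 2.60 to 13.77. The number of arrays limits the precision.

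Of 35556 probe sets, 21789 had 1 gene symbol in the platform annotation, and 1621 with several were not named. The brightest per gene was kept, giving 19938 genes. Entrez identifiers were matched to RefSeq, where 91 had no match.

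limma 3.58.1 (R 4.3.3) fitted KO against Control with the set as a block, since the series' design compares 4 sets, with a variance trend, two-sided tests and Benjamini-Hochberg adjustment. A further fit had a change per clone. Across genes, the 2 arrays of each set correlated at 0.72 to 0.82 once the KO and Control means were removed, which leaves the clone difference in. With the mean of each clone and treatment removed the correlation was 0.25 in clone 2 and 0.44 in clone 1. On simulated data the paired fit recovered 59 of 100 genes changed by 0.5 and 96 of 100 changed by 1, with 4 false calls. The simulated spreads were shuffled among genes, which removes the link between level and spread that the variance trend uses. These rates therefore do not measure recovery in the real arrays. The members and lists were chosen with earlier results of these data known. Genes named by a fixed rule include the members, Runx1 and Cbfb, and 5 genes per direction by likeness to Cd34. They also include every list gene past the threshold, or the smallest p of a list with none. List genes named for their clone difference alone were chosen after their values were seen. Alternatives covered pairing, variance model, array weights, scaling, a filter, probe sets and each set left out.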

Additional observations from a re-analysis of the deposited data

Results flagged for a closer look

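In Cd34 both sets of clone 2 were higher in KO, at 0.12 and 0.025 on log2, and both sets of clone 1 were lower, at -0.19 and -0.010. The change in clone 2 minus that in clone 1 was 0.17 and did not pass over all genes (limma adjusted p = 1.00). In the mean level of the 12 markers of myeloid cells carrying MLL-AF9, the KO array of clone 2, replicate 2, lay at 10.72 and the other KO arrays between 11.03 and 11.04, a gap of 0.958 of the whole range of the KO arrays. It was the only array to stand apart in 94 groups of 4 values examined, 66 of single genes and 28 of marker means, and about 1 in 20 such groups stands apart by chance.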

How the results depend on the processing

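With the pairing removed (no replicate block), 0 of 19938 genes passed in limma (317 at an unadjusted p under 0.05), and Spn, at the same change of -0.48, no longer passed. The count was 23 with only clone in the model, 78 with clone plus replicate number, 13 without the variance trend, 388 with array weights and 0 with all probe sets tested (1834 unadjusted), and 98 to 418 without 1 set. It fell to 98 without clone 1 replicate 2 and 110 without clone 2 replicate 1, and was 418 without clone 2 replicate 2. Of the 6 members 0 passed without the pairing (1 unadjusted), and with only clone in the model, without the trend or with all probe sets tested (2 unadjusted each), Spn staying at -0.48. In the 11 other alternatives 1 passed. Leaving out 1 set put Cd34 between -0.059 and 0.046, Spn between -0.53 and -0.42, Podxl between -0.12 and 0.0054 and Podxl2 between -0.096 and 0.026. Changes that did not pass turned sign in Cd34 (0.046) and Podxl2 (0.026) without clone 1 replicate 1, and in Podxl (0.0054) and Podxl2 (0.012) without clone 2 replicate 1. The difference of the Podxl2 change between clones turned to -0.010 with centred arrays. The clone difference of Cd34 stayed between 5.38 and 5.76 in 7 alternatives. B4galt1 passed with array weights (adjusted p = 0.0491). Cxcr4 (0.0523), Papss2, Rdx, Slc9a3r1, Prom1, Cd93 and Vcam1 (0.484) did not pass with clone plus replicate number, and St3gal1, Papss2, Rdx, Slc9a3r1 and Cd93 did not with centred arrays. With all probe sets tested the unadjusted p of Spn was also larger, 0.000412 in limma. The causes were not tested. Centring shifted the median of all changes by -0.023.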
